A study of Mus musculus with 12 samples.

Results

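The Ly6 family of small surface proteins was followed in RNA of Lewis lung carcinoma tissue resected from mouse lungs. A list of 8 genes was considered, namely Ly6a, Ly6c1, Ly6c2, Ly6d, Ly6e, Ly6h, Ly6i and Ly6k. A gene was kept where the array annotation gave it a probe set that names no other gene, and the probe set was chosen by its highest mean over all arrays. This left 5 genes, Ly6d, Ly6e, Ly6h, Ly6i and Ly6k, each with 1 probe set, of 19937 genes in all. The other 3 had no probe set of their own. Ly6c1 and Ly6c2 are listed together on 2 probe sets, and Ly6a was not analysed here. The family was selected on results of these data that were already known, among them the level of Ly6i in deficient hosts under air, so that difference is given below as a description with no test.

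The 12 arrays formed 4 groups of 3. Hosts were RelA/p65 deficient and exposed to smoke, RelA/p65 deficient and exposed to air, wild type and exposed to smoke, or wild type and exposed to air. By the labels, all hosts were female C57BL/6 mice. The tissue holds Lewis lung carcinoma, a transplantable mouse lung tumour, with whatever host cells were taken out with it. RelA/p65 belongs to the NF-kB transcription factors. The series title speaks of RelA/p65 in myeloid cells, and the labels state neither the Cre line nor the age of the mice, the length of exposure, nor whether each array of a group had its own animal. The p-values therefore speak only of the spread among these arrays, which could be technical.

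The transcript of Rela did not follow the label in this whole-tissue RNA, where Rela of myeloid cells alone was not measured. Its log2 level was between 9.27 and 9.45 in the 6 deficient arrays and between 9.01 and 9.26 in the 6 wild type arrays. Rela was thus higher, not lower, in arrays with the deficient label (by 0.20 ± 0.07 in air, adjusted p = 0.0285), and "deficient" below means only that label. Within groups, the correlation between arrays across genes was 0.990 to 0.998. Wild type air replicate 1 stood apart for interferon-induced genes: the mean level of 22 genes induced by type I interferon was 7.94 there and 7.19 and 7.25 in replicates 2 and 3. Counts of the gene lists that moved by more than 1 when it was left out are given both ways, and the other list counts given below moved by at most 1. H2-Ea, an MHC class II gene that C57BL/6 mice do not transcribe, had a log2 level of 11.52 ± 0.03 in deficient smoke, 9.14 ± 0.71 in deficient air, 6.22 ± 0.64 in wild type smoke and 9.71 ± 0.24 in wild type air (SD, n = 3 arrays each). H2-Ea thus did not follow the strain label, and its level differed between groups. Levels of some Ly6 proteins are known to differ between mouse strains. The part of strain background in the values below was not tested, and it cannot be told apart from genotype or smoke. Group means below are given ± SD of the 3 arrays. Changes below are log2 differences ± SE from limma, with p-values adjusted over all 19937 genes, and a change was called at an adjusted p under 0.05.

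Ly6 proteins carry a cysteine-rich fold known as the LU domain, and most sit in the outer membrane by a lipid (GPI) anchor. Many of their genes lie side by side on mouse chromosome 15. Several mark blood cell lineages, such as monocytes, neutrophils and stem cells, and some are switched on by interferons. In lung tissue, members are found on endothelium and on infiltrating leukocytes.

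**Figure D1:**
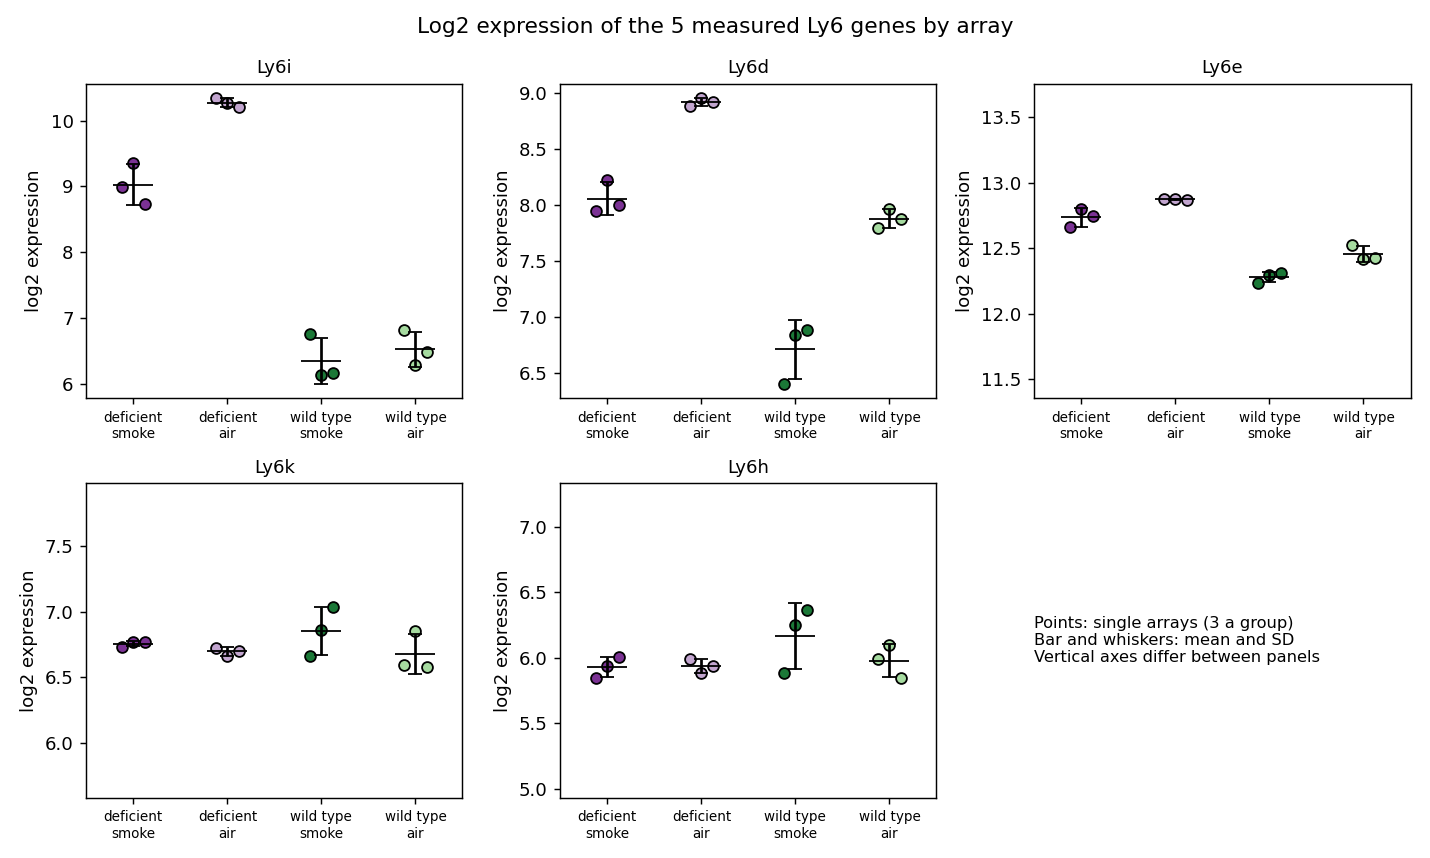
Log2 expression of the 5 measured Ly6 genes in each of the 12 arrays, by group, with points for arrays and bars for mean and SD. Ly6i averaged 10.27 in deficient air and was at most 6.82 in the wild type arrays, Ly6d was lowest in wild type smoke, and group means spanned 0.18 for Ly6k and 0.23 for Ly6h.

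Ly6i, a relative of the stem cell antigen Sca-1 that interferon gamma induces in mouse cells, had the widest range of the 5. Its log2 level was 8.99, 9.35 and 8.73 in the deficient smoke arrays and 10.34, 10.27 and 10.21 in the deficient air arrays. It was 6.76, 6.14 and 6.17 in the wild type smoke arrays and 6.82, 6.29 and 6.48 in the wild type air arrays. The order of the groups was thus deficient air, deficient smoke and then both wild type groups, whose arrays overlapped with each other and with no deficient array. In air, the group mean was 10.27 ± 0.07 in deficient hosts and 6.53 ± 0.27 in wild type hosts, a difference of 3.74 ± 0.18 or 13.4-fold, and 3.89 without wild type air replicate 1.

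Under smoke, Ly6i averaged 9.03 ± 0.31 in deficient hosts and 6.36 ± 0.35 in wild type hosts. The deficient arrays were higher by 2.67 ± 0.18, or 6.36-fold (adjusted p = 4.33e-08). The means come from arrays that the air comparison did not use. The SE comes from the fit to all arrays, the known deficient air arrays among them. The family and the tests were also chosen with earlier results of these data known, so this p-value is no independent support. Within deficient hosts, Ly6i fell with smoke: it was lower in the smoke arrays by -1.25 ± 0.18, or 2.37-fold (adjusted p = 0.00194), and all 3 smoke arrays lay under all 3 air arrays. Within wild type hosts the difference between smoke and air was -0.17 ± 0.18 (adjusted p = 0.479; 95% interval -0.57 to 0.22), with overlapping arrays. That difference was called with array weights, at -0.45 (adjusted p = 0.0227), and with 1 array left out it ran up to -0.03 (leaving out wild type air replicate 1) and down to -0.38 (leaving out wild type smoke replicate 1, adjusted p = 0.0752). The difference in smoke response between deficient and wild type hosts, tested as an interaction, was -1.07 ± 0.26 (adjusted p = 0.0123). The deficient air arrays, whose high Ly6i was known beforehand, enter the difference itself in both this interaction test and the smoke comparison in deficient hosts.

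Ly6d, known in mouse from early B-lineage cells and from squamous epithelium, was the only one of the 5 that was called in all 4 comparisons of groups. Its log2 level was 7.949, 8.221 and 7.998 in deficient smoke and 8.88, 8.95 and 8.92 in deficient air. It was 6.403, 6.839 and 6.885 in wild type smoke and 7.80, 7.96 and 7.88 in wild type air. Deficient air was highest and wild type smoke lowest, with no overlap with any other group, while deficient smoke and wild type air overlapped.

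The genotype difference of Ly6d was 1.04 ± 0.11 in air, or 2.06-fold (adjusted p = 9.00e-06), from means of 8.92 ± 0.04 in deficient and 7.88 ± 0.08 in wild type hosts. Under smoke it was 1.35 ± 0.11, or 2.54-fold (adjusted p = 3.74e-07), from means of 8.06 ± 0.15 in deficient and 6.71 ± 0.27 in wild type hosts. With smoke, Ly6d fell by 0.86 ± 0.11 in deficient hosts (adjusted p = 9.69e-04) and by 1.17 ± 0.11 in wild type hosts (adjusted p = 4.45e-06). The interaction was 0.31 ± 0.16 and did not pass (adjusted p = 0.243; 95% interval -0.04 to 0.66), and it was 0.15 without wild type smoke replicate 1 and 0.17 with array weights.

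Ly6e, a broadly expressed and interferon-inducible member that influences the entry of several viruses into cells, moved by less. Its log2 level was 12.66, 12.80 and 12.74 in deficient smoke and 12.88, 12.88 and 12.87 in deficient air. It was 12.24, 12.29 and 12.31 in wild type smoke and 12.53, 12.42 and 12.43 in wild type air. Every deficient array lay above every wild type array. The genotype difference was 0.42 ± 0.06 in air, or 1.34-fold (adjusted p = 1.06e-04), and 0.46 ± 0.06 under smoke, or 1.37-fold (adjusted p = 3.11e-05).

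The smoke difference of Ly6e was -0.14 ± 0.06 in deficient hosts (adjusted p = 0.435) and -0.18 ± 0.06 in wild type hosts (adjusted p = 0.0460), without overlap of arrays in either. The wild type call was lost when any array other than deficient smoke replicate 1 was left out, with a difference of -0.20 to -0.14, and with quantile normalization (-0.13), median centring (-0.09), the 6 arrays alone (adjusted p = 0.150), all probe sets of the table (adjusted p = 0.0677) and the replicate block (adjusted p = 0.0563). The interaction was 0.04 ± 0.09 (adjusted p = 0.808).

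Ly6k, a protein of male germ cells needed for sperm function in mouse, had levels of 6.73 to 6.77 in deficient smoke and 6.66 to 6.73 in deficient air. Its levels were 6.67 to 7.04 in wild type smoke and 6.58 to 6.85 in wild type air. Ly6h, which is found mainly in brain and binds nicotinic acetylcholine receptors, had levels of 5.85 to 6.01 in deficient smoke and 5.88 to 5.99 in deficient air. Its levels were 5.88 to 6.36 in wild type smoke and 5.85 to 6.09 in wild type air. Neither gene was called in any comparison, and their arrays overlapped in each comparison of groups except Ly6k in deficient hosts, where the difference between smoke and air was 0.06 ± 0.09. The 95% intervals of the 4 group differences stayed between -0.30 and 0.38 for Ly6k and between -0.47 and 0.42 for Ly6h.

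**Figure D2:**
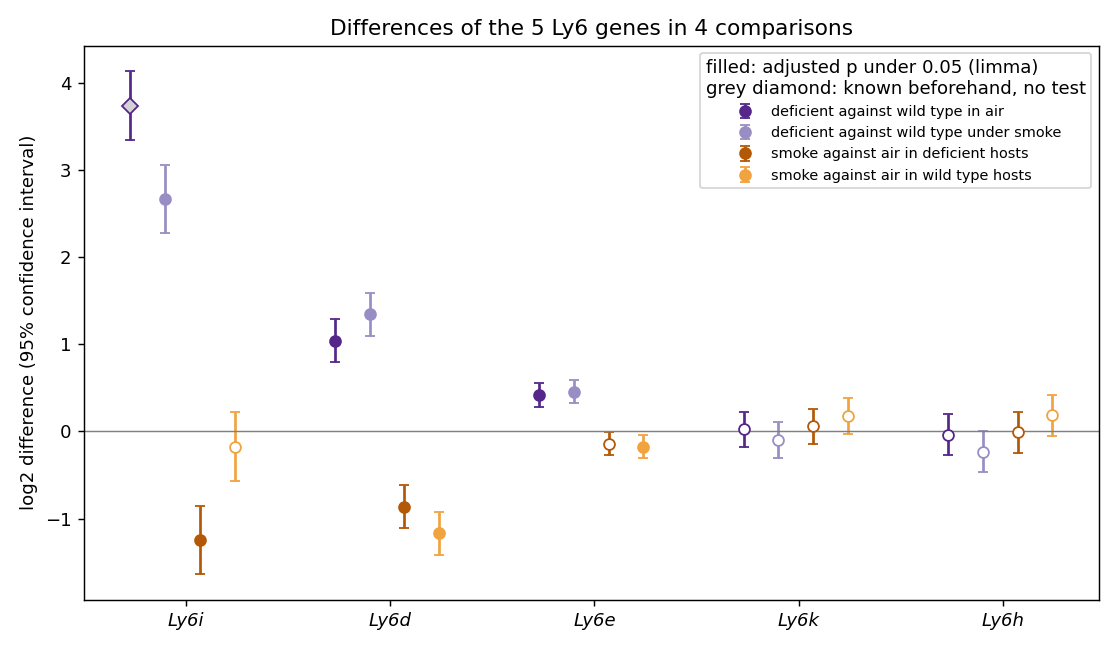
Log2 differences of the 5 Ly6 genes with 95% confidence intervals in the 4 comparisons of groups, deficient minus wild type and smoke minus air. Ly6i, Ly6d and Ly6e lay above 0 in both genotype comparisons, and only Ly6d was called lower with smoke in both host genotypes. The grey diamond marks the value known beforehand, which carries no test.

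In air, 3 of the 5 genes were higher in deficient hosts and none was lower, where 20.5% of all genes were called higher and 18.0% lower. Ly6i is one of these 3 and adds no support, and Ly6d and Ly6e are the other two. Under smoke the same 3 genes were higher and none lower, against 22.7% higher and 37.0% lower over all genes, but with quantile normalization or median centring Ly6h and Ly6k were also called, as lower, and Ly6h with array weights or without wild type smoke replicate 1. The median difference of the 5 was 0.42 in air and 0.46 under smoke, and that of all genes was -0.03 in air and -0.14 under smoke. Both genotype comparisons have their own arrays for the group means, but they share the variance of the fit to all arrays. Ly6i under smoke is no independent support either, since the family was chosen on earlier results of these data.

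Smoke in deficient hosts lowered 2 of the 5, Ly6i and Ly6d, and raised none, where 1.72% of all genes were lower and 0.692% higher. Ly6i adds no support here either, since its deficient air arrays were known at the choice of the family, which leaves Ly6d, 1 of the other 4. Smoke in wild type hosts lowered 2, Ly6d and Ly6e, and raised none, where 14.0% of all genes were lower and 15.0% higher. Only 1, Ly6d, was called when any one array was left out, apart from the following. Without wild type smoke replicate 1, 3 were called, Ly6d as lower and Ly6h and Ly6k as higher. Without wild type air replicate 2, 2 were called, Ly6d as lower and Ly6k as higher. Without deficient smoke replicate 1, 2 were called, Ly6d and Ly6e, both as lower. In the wild type comparison Ly6k was called higher with quantile normalization, and both Ly6h and Ly6k with median centring, while Ly6e was called with neither. With array weights all 5 were called, Ly6h and Ly6k as higher and the others as lower. The median difference of the 5 was -0.14 in deficient and -0.17 in wild type hosts, and that of all genes -0.00 in deficient and 0.08 in wild type hosts. The interaction was called for 1 of the 5, Ly6i, as lower, and nothing is read from that count, since the test includes the same deficient air arrays. Over all genes, 5.70% were called lower and 8.89% higher.

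Genes whose profile over the 12 arrays lay closest to that of Ly6i were found by the root mean square difference of values centred on each gene's own mean. They were Iigp1, an immunity-related GTPase, at 0.29 log2 units, and the guanylate-binding protein genes Gbp5 and Gbp4 at 0.35 and 0.36. Iigp1 averaged 9.66 in deficient smoke, 10.74 in deficient air, 7.30 in wild type smoke and 7.30 in wild type air. By the same measure, the genes closest to Ly6d were Cd79b, a chain of the B cell receptor, at 0.14, the uroplakin gene Upk3b at 0.15 and the tight junction gene Cldn1 at 0.19. Cd79b averaged 8.51 in deficient smoke, 9.10 in deficient air, 7.13 in wild type smoke and 8.16 in wild type air, in the order of Ly6d. Since Cd79b was picked for its closeness to Ly6d, nothing is read from the shared order. Cd79b is also among the B and plasma cell markers below, and Gbp4 among the genes induced by interferon gamma. Group means of Ly6e, Ly6h and Ly6k spanned less than 1 log2 unit, so no such genes were sought for them.

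Genes known to be induced by interferon gamma were measured beside Ly6i. For this and the other interferon lists, the shares over all genes between genotypes were 20.5% higher and 18.0% lower in air. Under smoke they were 22.7% higher and 37.0% lower. With smoke, 1.72% of all genes fell and 0.692% rose in deficient hosts, and 14.0% fell and 15.0% rose in wild type hosts. Of 18 such genes, 17 were higher and none lower in deficient than in wild type hosts in air, with a median difference of 2.34 (2.64 without wild type air replicate 1), and 16 were higher and none lower under smoke, with a median of 1.37. The tryptophan-degrading enzyme Ido1 was higher in air by 3.31 ± 0.16 and Ciita, the regulator of MHC class II genes, by 1.78 ± 0.08. With smoke, 13 of the 18 fell and none rose in deficient hosts, with a median of -1.004. Ido1 differed by -1.96 ± 0.16 there (adjusted p = 1.36e-05). In wild type hosts 1 rose and 2 fell, with a median of 0.05, and without wild type air replicate 1 these counts were 7 and 2 and the median 0.27.

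The interferon gamma gene Ifng itself was not called. Its log2 level was 5.74 ± 0.09 in deficient smoke, 5.84 ± 0.07 in deficient air, 5.81 ± 0.23 in wild type smoke and 5.60 ± 0.18 in wild type air. Every Ifng array lay below 6, the log2 level used by the intensity filter among the alternatives. The missing call therefore says little about Ifng. Of 11 genes of the interferon gamma receptor pathway, 6 were higher and 2 lower in deficient hosts in air, and likewise 6 and 2 under smoke. Without wild type air replicate 1, none of the 11 was lower in air. The transcription factor Irf1 was higher by 1.24 ± 0.10 in air and by 0.82 ± 0.10 under smoke, and fell with smoke in deficient hosts by 0.65 ± 0.10. The receptor chain Ifngr2 was higher by 0.65 ± 0.06 in air and by 0.56 ± 0.06 under smoke.

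Of 22 genes induced by type I interferon, to which Ly6e also responds, 21 were higher and none lower in deficient hosts in air, and 19 were higher and none lower under smoke. Their median difference was 1.11 in air (1.36 without wild type air replicate 1) and 0.89 under smoke. The antiviral gene Ifit3 was higher by 1.69 ± 0.17 in air and by 2.68 ± 0.17 under smoke. With smoke, 1 rose and 1 fell in deficient hosts, and none rose and 2 fell in wild type hosts. Without wild type air replicate 1 the wild type counts were 13 higher and 2 lower, with a median of 0.41 in place of 0.17, and 4 fell in deficient hosts.

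**Figure D3:**
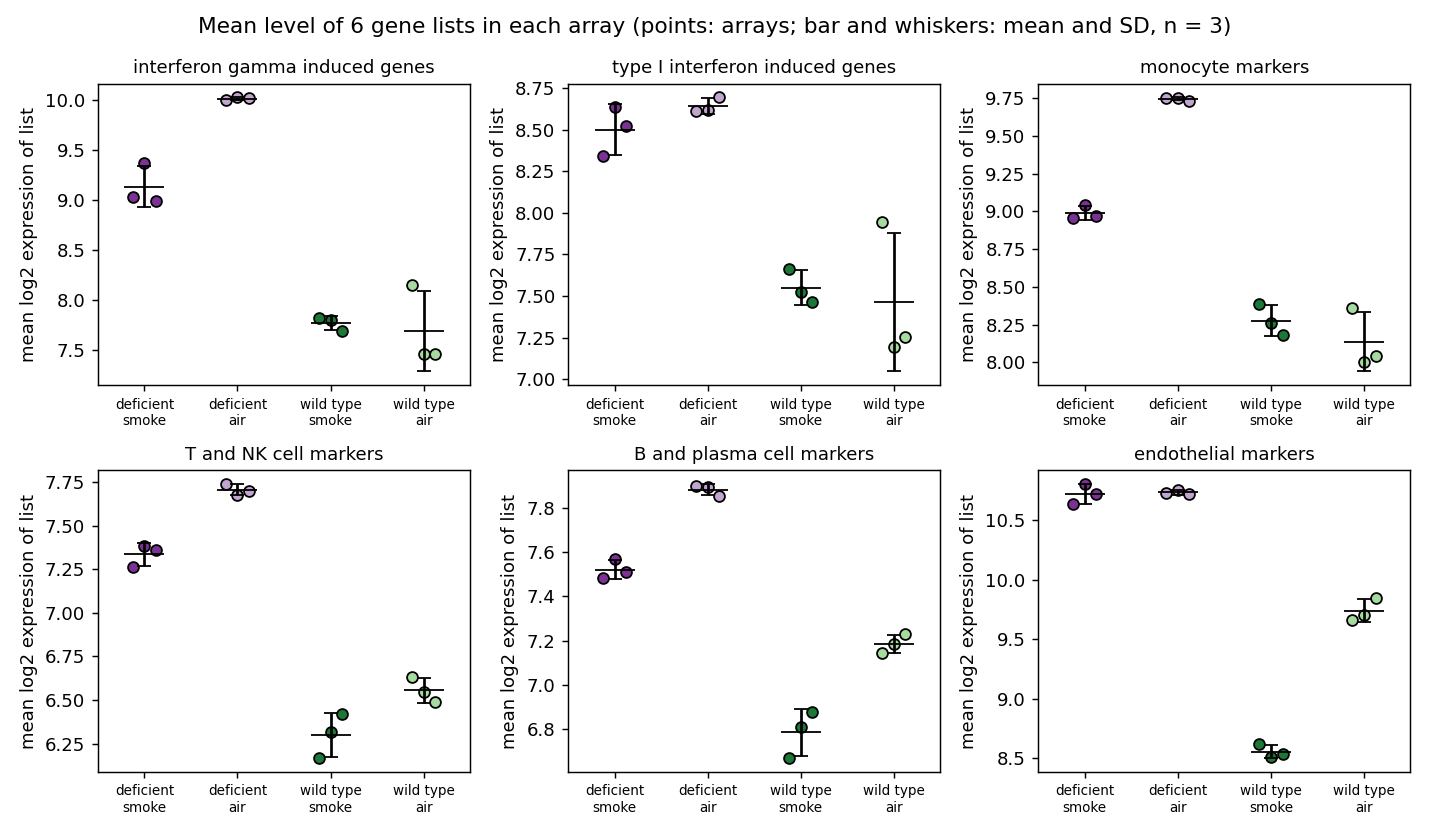
Mean log2 expression of 6 gene lists in each array, with points for arrays and bars for mean and SD. The interferon gamma list lay at 10.01 to 10.03 in deficient air, and in both interferon lists wild type air replicate 1 lay above the other wild type air arrays.

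Markers of cell types that carry Ly6 proteins were counted in the same comparisons. In bulk tissue fewer cells of a type and less RNA per cell cannot be told apart. Of all genes, 20.5% were higher and 18.0% lower in deficient hosts in air, and 22.7% higher and 37.0% lower under smoke. With smoke, 1.72% of all genes fell and 0.692% rose in deficient hosts, and 14.0% fell and 15.0% rose in wild type hosts. Of 17 monocyte markers, 16 were higher and 1 lower in deficient hosts in air, and 11 were higher and 2 lower under smoke (12 and 4 without wild type air replicate 1). The array means of this list were 8.95 to 9.04 in deficient smoke, 9.73 to 9.75 in deficient air, 8.18 to 8.38 in wild type smoke and 8.005 to 8.36 in wild type air. The chemokine receptor Ccr2, a marker of inflammatory monocytes, was higher by 1.31 ± 0.20 in air and by 0.68 ± 0.20 under smoke. Of the 17, 10 fell and none rose with smoke in deficient hosts, among them Adgre4, at -2.402 ± 0.10, and Treml4, at -2.16 ± 0.14, both known from non-classical monocytes. In wild type hosts 7 rose and 3 fell with smoke (9 and 3 without wild type air replicate 1).

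Of 16 B and plasma cell markers, 12 were higher and none lower in deficient hosts in air, and 11 were higher and 1 lower under smoke. With smoke, 5 fell in deficient and 6 in wild type hosts, and none rose in either. Their array means were 7.49 to 7.57 in deficient smoke, 7.86 to 7.90 in deficient air, 6.67 to 6.88 in wild type smoke and 7.14 to 7.23 in wild type air. Ms4a1, which encodes CD20, differed between smoke and air by -0.90 ± 0.09 in deficient and by -1.90 ± 0.09 in wild type hosts. Squamous and basal epithelial markers, the other tissue known for Ly6d, had 1 of 15 higher and 1 lower in air, and 2 higher and 4 lower under smoke. The shares over all genes were 20.5% higher and 18.0% lower in air, and 22.7% higher and 37.0% lower under smoke. Their array means were 5.99 to 6.03 in deficient smoke, 5.91 to 5.94 in deficient air, 5.77 to 6.08 in wild type smoke and 5.87 to 6.02 in wild type air.

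All 20 endothelial markers were higher in deficient hosts, both in air and under smoke, by a median of 0.97 and 1.89. Their array means were 10.64 to 10.80 in deficient smoke, 10.72 to 10.76 in deficient air, 8.51 to 8.62 in wild type smoke and 9.66 to 9.85 in wild type air. All 18 alveolar epithelial markers were higher as well, with array means of 11.47 to 11.60 in deficient smoke, 11.52 to 11.57 in deficient air, 8.39 to 8.56 in wild type smoke and 10.58 to 10.79 in wild type air. With smoke in wild type hosts, 18 of the 20 endothelial markers fell and none rose, with a median of -0.83. All 18 alveolar epithelial markers fell there, with a median of -2.03. In deficient hosts, 2 endothelial markers and 1 alveolar epithelial marker rose with smoke, and none fell. Kdr, a receptor for vascular endothelial growth factor, was higher in deficient hosts by 0.80 ± 0.08 in air and by 2.85 ± 0.08 under smoke. T and NK cell markers had 22 of 23 higher in air and 19 under smoke, with none lower, and with smoke 8 fell in deficient and 6 in wild type hosts, with none risen. Cd3e, a chain of the T cell receptor complex, was higher by 0.56 ± 0.16 in air and by 0.44 ± 0.16 under smoke. Their array means were 7.26 to 7.38 in deficient smoke, 7.68 to 7.74 in deficient air, 6.17 to 6.42 in wild type smoke and 6.49 to 6.63 in wild type air. Of 14 tissue macrophage markers, 8 were higher and 1 lower in air (9 and 2 without wild type air replicate 1), and 1 was higher and 12 lower under smoke. With smoke, 12 of the 14 rose and none fell in wild type hosts, and none rose and 1 fell in deficient hosts. Of 16 neutrophil markers, 9 were higher and none lower in air, and 8 were higher and 4 lower under smoke. The shares over all genes were 20.5% higher and 18.0% lower in air, and 22.7% higher and 37.0% lower under smoke. With smoke, 8 of the 16 rose and 1 fell in wild type hosts, and 4 rose and none fell in deficient hosts. The part of each cell type in the Ly6 differences was not tested.

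Relatives of the family were described from a list of 29 other measured Ly6/uPAR genes. In air 10 were higher and 1 lower in deficient hosts, and under smoke 6 were higher and 5 lower, with medians of 0.01 in air and -0.15 under smoke. The shares over all genes were 20.5% higher and 18.0% lower in air, and 22.7% higher and 37.0% lower under smoke. The medians of all genes were -0.03 in air and -0.14 under smoke. Gpihbp1, which carries lipoprotein lipase across capillary endothelium, was higher by 1.09 ± 0.08 in air and by 1.05 ± 0.08 under smoke. The complement inhibitor Cd59a was higher by 1.49 ± 0.13 in air and by 1.54 ± 0.13 under smoke, and Lynx1, a modulator of nicotinic receptors, by 0.59 ± 0.10 in air and by 0.98 ± 0.10 under smoke. The neutrophil marker Ly6g was higher by 0.55 ± 0.11 in air (adjusted p = 0.00142), at levels of 5.68 ± 0.14 in deficient and 5.14 ± 0.20 in wild type hosts, and was not called under smoke. All Ly6g arrays lay below 6, the log2 level used by the intensity filter, so this is a difference between dim values. With smoke, 1.72% of all genes fell and 0.692% rose in deficient hosts, and 15.0% rose and 14.0% fell in wild type hosts. Of the 29, 1 fell and none rose in deficient hosts, and 4 rose and 3 fell in wild type hosts, among them Plaur, the urokinase receptor, at 0.52 ± 0.10. Without wild type air replicate 1 these counts were 2 fallen in deficient hosts and 2 risen in wild type hosts, and 9 were higher and none lower in air.

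All 8 listed genes lie on chromosome 15, in a run of 29 protein-coding genes from Psca to Gpihbp1 in the GRCm38.p6 gene table. Of the 16 measured genes of this run that are not among the 8, 7 were higher and none lower in deficient hosts in air, and 4 were higher and 1 lower under smoke. Over all genes, 20.5% were higher and 18.0% lower in air, and 22.7% higher and 37.0% lower under smoke. The run is not uniform along its length. Ly6e and Ly6i are neighbours with differences of 0.42 and 3.74 in air, and Ly6k and Ly6m, which lie between Ly6d and Ly6e, differed by 0.02 ± 0.09 and -0.02 ± 0.10. Ly6m was picked for its place after its values were seen.

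**Figure D4:**
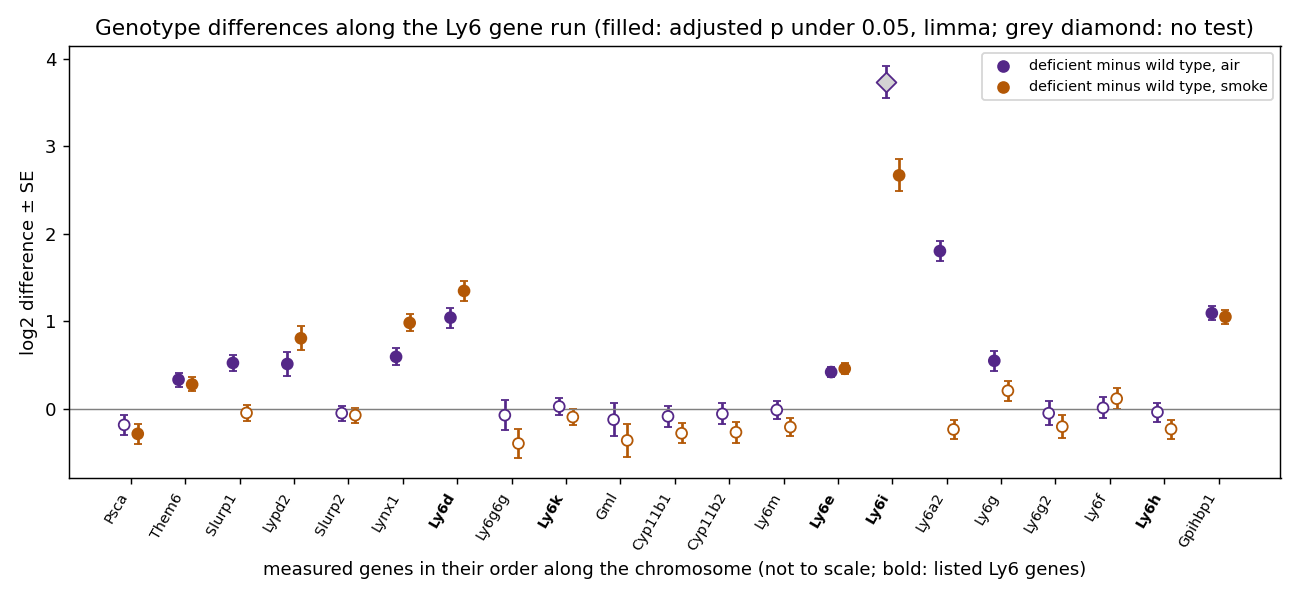
Genotype differences with SE in air and under smoke for the 21 measured genes of the chromosome 15 run, in gene order and not to scale, with the listed Ly6 genes in bold. Differences above 1 log2 unit stood at Ly6d, Ly6i and Gpihbp1 in both exposures and at Ly6a2 in air alone, beside genes near 0. The grey diamond marks the value known beforehand, which carries no test.

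Ly6c1 and Ly6c2 encode the Ly6C antigens of endothelium, T cells and inflammatory monocytes, and no value here belongs to either gene alone. The first of the 2 probe sets listed for both had levels of 12.52 to 12.67 in deficient smoke, 12.84 to 12.91 in deficient air, 11.26 to 11.67 in wild type smoke and 11.71 to 11.81 in wild type air. In a fit of all 34760 probe sets, chosen after seeing the data, it was higher in deficient hosts by 1.10 ± 0.09 in air (adjusted p = 1.08e-05) and by 1.15 ± 0.09 under smoke (adjusted p = 2.71e-06). The second was higher by 1.08 ± 0.06 in air and by 1.16 ± 0.06 under smoke. Every deficient array lay above every wild type array on both. With smoke, they differed by -0.28 ± 0.09 and -0.27 ± 0.06 in deficient hosts, neither called, and were lower in wild type hosts by -0.33 ± 0.09 (adjusted p = 0.0375) and -0.35 ± 0.06 (adjusted p = 0.00289).

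The stretches around the gene starts of this pair are shown because the shared probe sets cannot separate the genes, while their promoters differ. Ly6a2, the next gene after Ly6c2, is shown with them. RefSeq sequences of build GRCm38.p6, 300 bases around each start, were in the table used for Ly6c1 and Ly6c2 of the 8 listed genes, and Ly6a, Ly6d, Ly6e, Ly6h, Ly6i and Ly6k had no entry. All 3 lie on the minus strand: Ly6c1 at chr15:75048788-75049087, Ly6c2 at chr15:75111922-75112221 and Ly6a2 at chr15:75135079-75135378. Capitals mark bases that differ from the Ly6c2 base aligned with them, 54 in Ly6c1 and 4 in Ly6a2. Bases that face a gap in Ly6c2 stay in lower case, and Ly6c2 bases missing from the other window are not marked.
Ly6c2: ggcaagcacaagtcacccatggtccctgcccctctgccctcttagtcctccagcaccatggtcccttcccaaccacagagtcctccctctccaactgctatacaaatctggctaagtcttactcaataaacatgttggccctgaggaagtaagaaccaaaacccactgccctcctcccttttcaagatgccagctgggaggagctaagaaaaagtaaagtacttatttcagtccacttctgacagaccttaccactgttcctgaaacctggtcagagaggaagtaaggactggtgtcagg
Ly6c1: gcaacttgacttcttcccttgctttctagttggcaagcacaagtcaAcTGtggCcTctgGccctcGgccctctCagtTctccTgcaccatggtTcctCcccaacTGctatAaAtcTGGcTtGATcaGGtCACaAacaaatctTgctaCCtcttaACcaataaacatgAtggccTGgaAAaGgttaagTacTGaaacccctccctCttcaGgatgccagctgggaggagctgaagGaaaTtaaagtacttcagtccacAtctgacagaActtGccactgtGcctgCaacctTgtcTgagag
Ly6a2: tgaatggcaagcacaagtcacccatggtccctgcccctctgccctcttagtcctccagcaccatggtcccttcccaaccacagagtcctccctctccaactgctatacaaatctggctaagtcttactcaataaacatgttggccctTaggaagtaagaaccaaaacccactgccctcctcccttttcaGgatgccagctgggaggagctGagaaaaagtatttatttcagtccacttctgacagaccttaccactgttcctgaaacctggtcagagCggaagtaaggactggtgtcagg

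With gaps left out, 98.6% of 295 aligned bases were identical between Ly6c2 and Ly6a2, and 79.6% of 265 between Ly6c2 and Ly6c1. None of the 3 windows held the core of the interferon response element (GAAA, any 2 bases, GAAA) on either strand, while 3.49% of 27025 such windows did. This says only that these letters are not in these windows. Ly6a2 itself, measured by its own probe set and described after its values were seen, averaged 6.42 ± 0.12 in deficient smoke, 7.69 ± 0.16 in deficient air, 6.66 ± 0.23 in wild type smoke and 5.88 ± 0.07 in wild type air. It fell with smoke in deficient hosts by 1.26 ± 0.11 (adjusted p = 3.29e-05) and rose with smoke in wild type hosts by 0.78 ± 0.11 (adjusted p = 1.74e-04). The interaction was -2.04 ± 0.16 (adjusted p = 8.57e-07).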

How the data were processed

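Values of 12 Affymetrix mouse gene arrays were used as the authors deposited them, as log2 expression per probe set, made per the submitters' processing notes with RMA in Affymetrix Expression Console. RMA includes quantile normalization between arrays and compresses differences of dim probe sets, and the number of arrays limits precision. Of 34760 probe sets, 21640 named 1 gene, 1321 several and 11799 were not listed. The brightest one-gene probe set was kept for each of 19937 genes.

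limma 3.58.1 in R 4.3.3 fitted 1 mean per group to all 12 arrays, with 5 contrasts, 2-sided tests and Benjamini-Hochberg adjustment over all genes. The method was tested on simulated data. The members, 12 gene lists (219 of 237 genes measured), tests and alternatives were chosen with earlier results of these data known. Named genes were the members, the 3 closest profiles of members spanning at least 1 log2 unit, the 3 genes of smallest p per list and comparison, and Rela, H2-Ea, Ifng, Irf1, Cd3e, Ccr2, Kdr and Ly6g, with 1 further gene not reported here. Ly6a2 and Ly6m were named after their values were seen. Alternatives covered filters, probe set choice, normalization, variance settings, blocks and each array left out.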

Additional observations from a re-analysis of the deposited data

Results flagged for a closer look

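The smoke minus air difference of Ly6i was lower in deficient than in wild type hosts, with an interaction of -1.07 ± 0.26 (adjusted p = 0.0123, limma). This test includes the deficient air arrays, whose high Ly6i was known when the family was chosen, so its p-values are no independent support. The difference was -1.25 in deficient hosts, with 3 of 3 smoke arrays below all air arrays, and -0.17 in wild type hosts, where arrays overlapped. Across the alternatives the interaction lay between -1.24 and -0.79, with an adjusted p of 0.00577 to 0.0461. In the same comparison of deficient hosts, 13 of 18 interferon gamma induced genes, 10 of 17 monocyte markers, 8 of 23 T and NK cell markers and 5 of 16 B and plasma cell markers were called lower and none higher. Over all genes, 1.72% were lower and 0.692% higher. Among other lists, 4 of 16 neutrophil, 2 of 20 endothelial and 1 of 18 alveolar epithelial markers were higher and none lower. In the interferon gamma receptor pathway 2 of 11 were lower, and 1 of 14 tissue macrophage markers, with none higher. Of 22 type I interferon induced genes, 1 was higher and 1 lower (4 lower without wild type air replicate 1). The part of these genes in the Ly6i difference was not tested.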

How the results depend on the processing

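Ly6d and Ly6e kept their direction and call in both genotype comparisons, as did Ly6i under smoke and Ly6d with smoke in both hosts, under each alternative and each array left out. The count of called genes for smoke in wild type hosts was 2, but 5 with array weights, 1 with the 6 arrays alone, the replicate block or all probe sets of the table (added after seeing the data), and 1 to 3 with 1 array left out. For genotype under smoke it was 5 with quantile normalization and with median centring, in place of 3, and for the interaction 1 to 2 with 1 array left out. Median centring gave all genes a median of -0.28 between genotypes under smoke, in place of -0.14. The cause of these moves was not tested. Whether replicate numbers pair the samples was not settled. Correlations of same-numbered deviations ran from -0.36 to 0.37, with 7 of 18 above 0.1, and differently numbered arrays were not compared. Signs turned only for differences that were not called. Ly6k between genotypes in air was -0.0254 with quantile normalization, -0.0526 with median centring and -0.0244 to 0.112 with 1 array left out. Ly6h with smoke in deficient hosts was 0.0155 with median centring, 0.0214 with array weights and -0.0460 to 0.0330 with 1 array left out, and Ly6h between genotypes in air was -0.105 to 0.0183 with 1 array left out. The Ly6e interaction was -0.0288 with median centring. With 3 arrays a group, small differences of dim genes such as Ly6h could not be resolved.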
